A study of Mus musculus with 4 samples.

Results

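The genes described here are 7 genes of the class II major histocompatibility complex (MHC) of the mouse, Cd74, H2-Aa, H2-Ab1, H2-Eb1, H2-DMa, H2-DMb1 and Ciita. They are 7 of the 17630 genes with values in the study, and all 7 have a value in each library. They were selected on FPKM values of these same libraries, so their levels are given as a description and were not tested. The study asked how sympathetic nerves act on the mammary gland and its stem cells. It has 4 RNA-seq libraries, 1 for each condition, all from wild-type mouse mammary basal cells, the outer layer of the duct epithelium. The sorted control library came from basal cells of untreated mice, and the sorted 6-OHDA library from basal cells of mice given 6-OHDA (6-hydroxydopamine), a toxin that destroys sympathetic nerve endings. The control colonies grew from basal cells embedded in Matrigel, which is a basement membrane gel, without an added agonist. The SP colonies grew with salbutamol and phenylephrine (SP), agonists of the β2 and α1 adrenergic receptors.

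The strain and age of the mice behind these libraries, and how many mice or cultures went into each, are unstated in the labels and methods. The study defined basal cells by the surface markers CD24 and CD29 after cells with CD31, CD45 or TER119, the marks of endothelial cells, leukocytes and red cells, were gated out. The label of the SP library carries a number with no unit, so no dose is given. With 1 library per condition there is no replicate, the spread between mice or between cultures is unknown, and each comparison sets a single library against another.

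MHC class II molecules show peptides from the endocytic pathway to CD4 T cells. The α and β chains (H2-Aa with H2-Ab1, and the E β chain H2-Eb1) pair in the endoplasmic reticulum around the invariant chain Cd74, which fills the peptide groove and leads the complex to endosomes. There H2-DM, a dimer of H2-DMa and H2-DMb1, takes out the last piece of the invariant chain and lets peptides bind. Dendritic cells, macrophages and B cells carry class II as professional antigen-presenting cells, whereas epithelial and endothelial cells can be induced to make it by interferon-γ. Ciita, the class II transactivator, binds no DNA itself and acts through the RFX, NF-Y and CREB factors on the class II promoters.

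Levels are in FPKM, fragments scaled to the length of the transcript and to the fragments sequenced, as the authors deposited them with 2 decimals. Levels of different genes are thus compared per length of transcript. The values summed to 508071 in the sorted control library, 517504 in the sorted 6-OHDA library, and to 577631 and 588202 in the colonies without and with SP. Read counts were not analysed here. From the steps between low values of genes with a single transcript, 1 FPKM on a transcript of 1 kilobase stood for roughly 16.0 to 18.8 fragments in the 4 libraries, at assumed fragment lengths between 200 and 300 bases. This rough figure was used only to see which levels rest on a few fragments.

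Keratins of basal cells were abundant in all libraries. Krt14 was listed at 3595 FPKM in the sorted control library, 2633 in the sorted 6-OHDA library, 3298 in control colonies and 6920 in SP colonies. Myh11, a smooth muscle myosin of the contractile basal cell, was listed at 467, 449, 11.2 and 21.4 FPKM in the same order, so the colonies were low in it. The sorted libraries also held endothelial transcripts, although CD31 had been gated out. Pecam1, the gene of CD31, was listed at 106.6 and 93.0 FPKM in the sorted control and sorted 6-OHDA libraries and at 1.39 and 1.56 FPKM in the control and SP colonies.

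Cd74 (NCBI Gene 16149, chromosome 18, 60803849 to 60812652 in GRCm38.p6), the invariant chain, had the highest level of the 7 genes in both sorted libraries. It was listed at 73.0 FPKM in the sorted control library, 19.5 in the sorted 6-OHDA library, 0.58 in control colonies and 0.37 in SP colonies. The sorted libraries were thus high and both colony libraries low, and within the sorted pair the 6-OHDA library was the lower. On the rough scale above, the colony values stood for about 12 and 8 fragments.

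H2-Aa (NCBI Gene 14960), the α chain of the A molecule, was likewise highest in the sorted control library and near 0 in culture. It was listed at 16.65 FPKM in the sorted control library and 7.16 in the sorted 6-OHDA library, then at 0 in control colonies and 0.06 in SP colonies. The value in the SP colonies stood for about 1 fragment. H2-Eb1 (NCBI Gene 14969), the β chain of the E molecule, was listed at 8.09, 3.38, 0.08 and 0.12 FPKM in the order sorted control, sorted 6-OHDA, control colonies and SP colonies. It too was near 0 in the colonies, where its values stood for about 2 and 3 fragments.

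H2-Ab1 (NCBI Gene 14961), the β chain that pairs with H2-Aa, departed from its partner in culture. It was listed at 22.2 FPKM in the sorted control library, 6.91 in the sorted 6-OHDA library, 22.6 in control colonies and 58.0 in SP colonies. The SP colonies were therefore the highest of the 4 libraries for this gene and the sorted 6-OHDA library the lowest. In the SP colonies its value stood for roughly 1009 fragments on the scale above.

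H2-DMa (NCBI Gene 14998) and H2-DMb1 (NCBI Gene 14999), the chains of the peptide-loading dimer, were low in the sorted libraries and higher in the colonies. H2-DMa was listed at 1.53 FPKM in the sorted control library, 1.12 in the sorted 6-OHDA library, 4.14 in control colonies and 3.36 in SP colonies. H2-DMb1 was listed at 3.89, 3.34, 7.76 and 6.67 FPKM in that order. Ciita (NCBI Gene 12265, chromosome 16, 10480014 to 10531064) was listed at 0.17, 0.10, 0.09 and 0.02 FPKM. All 4 values of the transactivator were close to 0, and on the rough scale they stood for about 17, 10, 9 and 2 fragments of its long transcript.

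**Figure D1:**
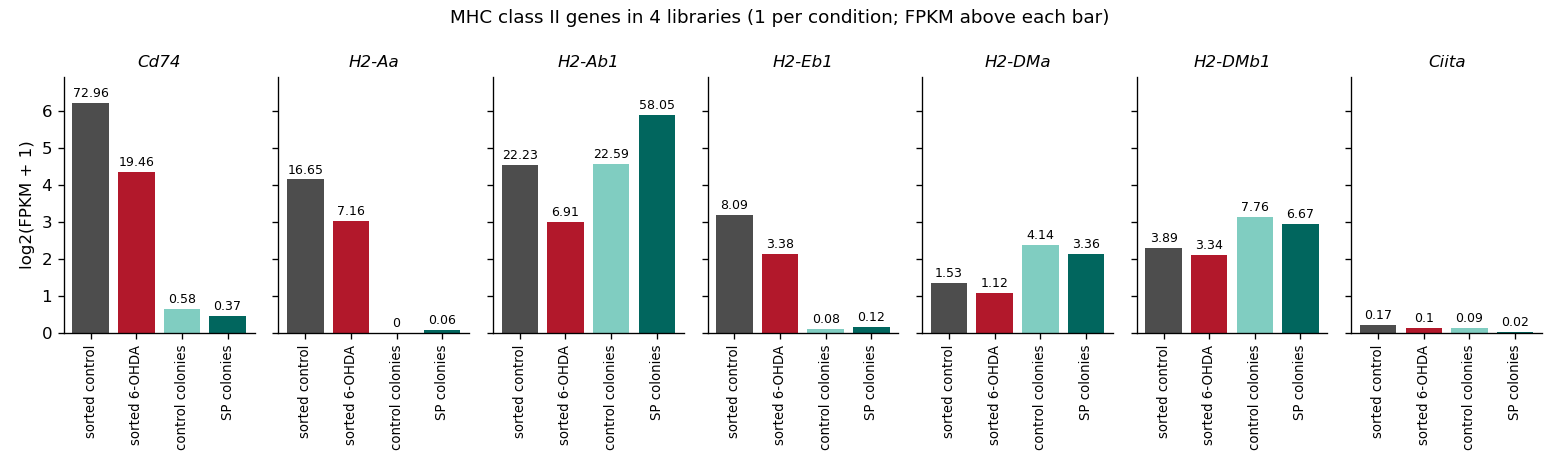
Level of each of the 7 class II genes in the 4 libraries, as log2(FPKM + 1) on the vertical axis, with the FPKM value above each bar and 1 library behind each bar. Cd74, H2-Aa and H2-Eb1 stand high in the sorted libraries and near 0 in both colony libraries, whereas H2-Ab1 is highest in the SP colonies at 58.05 FPKM.

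The order of the levels changed between the sorted cells and the colonies. In the sorted control library it ran from Cd74 through H2-Ab1, H2-Aa, H2-Eb1, H2-DMb1 and H2-DMa to Ciita, and Cd74 held 58.1% of the summed FPKM of the 7 genes. In the sorted 6-OHDA library Cd74 held 46.9%, and H2-Aa and H2-Ab1, at 7.16 and 6.91 FPKM, were next. In the control colonies H2-Ab1 held 64.1% and H2-DMb1 22.0%, and in the SP colonies H2-Ab1 held 84.6%. Per length of transcript, H2-Ab1 was 1.34 times H2-Aa in the sorted control library and 0.965 times H2-Aa in the sorted 6-OHDA library. In the SP colonies H2-Ab1 was listed at 58.0 FPKM beside 0.06 FPKM for H2-Aa, and in the control colonies H2-Aa was listed at 0. The summed FPKM of the 7 genes was 125.5 in the sorted control library, 41.5 in the sorted 6-OHDA library, 35.2 in control colonies and 68.7 in SP colonies. Most of the sum of either colony library was H2-Ab1.

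The first comparison was of basal cells sorted from 6-OHDA-treated mice with those from control mice. The classical class II chains and the invariant chain were lower in the 6-OHDA library. By the FPKM values themselves, Cd74 was 3.75 times lower, H2-Ab1 3.22 times, H2-Eb1 2.39 times and H2-Aa 2.33 times. H2-DMa and H2-DMb1 were 1.37 and 1.16 times lower. Fewer cells that make class II and less class II RNA per cell cannot be told apart in RNA from many cells.

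Differences were taken on log2(FPKM + 1), a scale on which low genes seem to change less than they do. They were counted past 0.3 in size where the mean of both libraries reached 1 FPKM. The study used this fold threshold together with one on the adjusted P-value, which was not applied here. Of the 7 genes, 6 were compared in the sorted cells, and Ciita lay under the filter. The number lower by more than 0.3 was 4 and the number higher was 0, beside 8.35% of all 11749 compared genes lower and 15.8% higher. Scaling on the median ratio over the compared genes gave 11.5% of all genes lower and 11.7% higher, with 4 of the 6 still lower. The same 4 genes, Cd74 at -1.85, H2-Ab1 at -1.55, H2-Aa at -1.11 and H2-Eb1 at -1.05, were also lower by more than 1, as were 0.902% of all genes. Of the 11749 genes, 20 had a lower difference than Cd74, 33 than H2-Ab1, 80 than H2-Aa and 95 than H2-Eb1. H2-DMa at -0.26 and H2-DMb1 at -0.17 did not pass 0.3, but H2-DMa passed it after quantile normalization, at -0.35, and with a pseudocount of 0.1 FPKM, at -0.42. The median difference of the 6 compared genes was -1.08, and that of all genes was 0.06.

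Factors that bind class II promoters were compared as well. Of 7 such genes (Rfx5, Rfxap, Rfxank, Nfya, Nfyb, Nfyc and Creb1), 0 passed 0.3 in either direction, where 8.35% of all genes were lower and 15.8% higher, which leaves 0 of 7 near the shares of all genes. Their differences ran from -0.14 for Nfya to 0.23 for Rfx5. Rfx5, a subunit of the RFX complex, was listed at 4.43 FPKM in the control library and 5.38 in the 6-OHDA library.

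Genes of the interferon-γ pathway moved in part, where 8.35% of all genes were lower past 0.3, 15.8% higher and 0.902% lower past 1. Of 10 genes from the ligand to the feedback inhibitor, 9 were compared, of which 5, Irf1, Irf2 and Irf8 among them, were lower and 1 (Ifngr2, a receptor chain) was higher. Irf8, an interferon regulatory factor best known from myeloid cells, went from 29.0 FPKM in the control library to 8.48 in the 6-OHDA library, a difference of -1.66. The ligand Ifng was listed at 0 and 0.06 FPKM, and the kinase Jak1, the most abundant gene of the list, at 146.3 and 132.6 FPKM. A list of 18 genes known to respond to interferon-γ had 17 in the files, of which 17 were lower and 14 were lower by more than 1, with a median difference of -1.38. Its most abundant gene, the chemokine Cxcl10, went from 584 to 84.1 FPKM.

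The class I genes, which show peptides from the cytosol to CD8 T cells, were also lower. All 7 of the list (H2-K1, H2-D1, B2m, Tap1, Tap2, Tapbp and Nlrc5) passed 0.3 and 1 of them, Tap1, passed 1, with a median of -0.55. Of all genes, 8.35% were lower past 0.3 and 0.902% past 1. B2m, the light chain of class I and its most abundant gene, was listed at 994.7 FPKM in the control library and 794.4 in the 6-OHDA library. Nlrc5, the class I counterpart of Ciita, was listed at 12.5 and 7.45 FPKM, well above Ciita per length in both. Whether the lists of class I and class II genes differed in their change was not tested.

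Genes of proteins that cut antigens and the invariant chain in endosomes were compared too. Of 10 genes for lysosomal antigen processing, 2 were lower (Ctss and Ctsl) and 0 higher with 6-OHDA. That is near the shares of all genes, 8.35% lower and 15.8% higher, and the median of the list was -0.10. Ctss encodes cathepsin S, which cuts the invariant chain in antigen-presenting cells, and was listed at 9.16 and 4.35 FPKM in the sorted control and sorted 6-OHDA libraries. Ctsl, which does so in thymic epithelium, was the most abundant gene of the list at 1094 and 876 FPKM. Of 7 genes for T cell costimulation and adhesion, 2 were compared and 0 passed 0.3. Cd40 lay under the filter, at 1.42 and 0.33 FPKM. Cd86, which mature antigen-presenting cells carry with class II, was listed at 0.15 and 0.18 FPKM, and Icam1, the most abundant, at 542.8 and 487.3 FPKM.

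Markers of professional antigen-presenting cells and other leukocytes were mostly low in the sorted libraries. Their counts stand beside 8.35% of all genes lower and 15.8% higher. The 7 pan-leukocyte genes summed to 13.8 FPKM in the sorted control library and 10.4 in the sorted 6-OHDA library, led by Lcp1 at 6.75 and 5.95 FPKM. Of these, 3 were compared and 2 (Coro1a and Cd52) were lower, and the 4 not compared all had lower values with 6-OHDA. Coro1a was under 1 FPKM in the sorted 6-OHDA library, so the filter fixed its direction. Ptprc, the gene of CD45, was listed at 0.77 and 0.47 FPKM. The 12 macrophage genes summed to 46.6 and 36.0 FPKM, most of it Cd14 at 29.9 and 20.1 FPKM, with 2 of 6 compared genes (Cd14 and Mrc1) lower, 0 higher and a median of -0.06. Of the 6 not compared, 4 had higher values with 6-OHDA, among them C1qa at 0.49 and 1.15 FPKM, and Fcgr1 went from 0.05 to 0. Csf1r, the receptor that macrophages depend on, was listed at 0.52 and 0.50 FPKM.

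Dendritic cell and lymphocyte markers were low as well. The 9 dendritic cell genes summed to 8.63 FPKM in the sorted control library and 7.52 in the sorted 6-OHDA library, led by Zbtb46 at 5.55 and 5.25 FPKM, the only 1 compared, which did not pass 0.3. Itgax and Flt3 were at or under 0.19 FPKM in both, and Cd209a was at 0 in the 6-OHDA library. Of the 8 not compared, 4 had lower values with 6-OHDA, Clec9a at 1.06 and 0.46 FPKM and Ccr7 at 0.69 and 0.34 FPKM among them, and 3 had higher ones. Of 8 B cell genes, 6 were in the files and summed to 4.56 and 3.73 FPKM, led by Cd79a at 2.79 and 2.24 FPKM, the only 1 compared, which did not pass 0.3, and of the other 5, 4 had lower values with 6-OHDA and 1 a higher one. Of 8 T cell genes, 7 were in the files and summed to 6.74 and 4.82 FPKM, led by Lck at 5.88 and 3.93 FPKM, the only 1 compared, at -0.48. Of the 6 not compared, all at or under 0.31 FPKM, 4 had higher values with 6-OHDA and 2 lower ones, with Cd3e at 0. The part of these cells in the lower class II values was not tested.

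Markers of other cells of the gland were compared in the sorted cells beside the same shares of all genes, 8.35% lower and 15.8% higher. The 7 endothelial genes summed to 346 FPKM in the sorted control library and 330 in the sorted 6-OHDA library, with 2 of 7 (Tek and Emcn) higher and 0 lower. Of the 8 fibroblast genes, 5 were higher and 0 lower, with sums of 190 and 386 FPKM and Dcn the most abundant at 115 and 135 FPKM. The 8 basal genes summed to 9454 and 8367 FPKM, with 2 (Krt14 and Krt17) lower and 1 (Acta2) higher, and the 10 luminal genes to 1103 and 1061 FPKM, led by Krt8 at 560 and 545 FPKM, with 2 of 9 lower and 2 higher. Salivary gland secretory genes, 11 of 13 in the files and drawn up from values seen before, summed to 1.87 FPKM in the control library with 8 at 0, and to 15848 FPKM in the 6-OHDA library, led by Bpifa2 at 7277 FPKM. That is 3.06% of all FPKM of the 6-OHDA library, which lowers all other values there by about that share. With the same sum set over the genes outside this list, the median of the 6 compared class II genes was -1.07. The part of the other markers in the class II values was not tested.

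The next comparison was of colonies grown with and without SP. H2-Ab1 was the 1 class II gene that moved past the threshold, and it was higher with SP, at 58.0 FPKM against 22.6, or 2.57 times. H2-DMa and H2-DMb1 were 1.23 and 1.16 times lower with SP. Cd74, H2-Aa, H2-Eb1 and Ciita were at or under 0.58 FPKM in both colony libraries and were not compared.

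Of the 7 genes, 3 passed the filter in the colonies. On the log2 scale H2-Ab1 differed by 1.32, H2-DMa by -0.24 and H2-DMb1 by -0.19, so 1 was higher and 0 lower by more than 0.3, where 11.7% of all 11849 compared genes were higher and 19.8% lower. Scaling by the median ratio gave 14.8% of all genes higher and 14.8% lower, and 1.39 for H2-Ab1. At a threshold of 1 the share of all genes that were higher was 2%, and 134 genes had a larger difference than H2-Ab1. The median of the 3 compared genes was -0.19, which is the value of H2-DMb1 and not that of H2-Ab1. Over the alternative pseudocounts and scalings H2-Ab1 kept a difference between 1.19 and 1.39.

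Related genes were compared in the colonies too, where 11.7% of all genes were higher and 19.8% lower. All 7 promoter factors were compared and 0 passed 0.3, with differences from -0.19 to -0.01. Of the interferon-γ pathway genes 8 were compared and 0 passed 0.3 as listed, whereas 1 (Socs1) was higher after scaling by the median ratio. Socs1 was under 1 FPKM without SP, so the filter fixed its direction. Whether these lists differed from H2-Ab1 or from all genes was not tested. Irf8 was at 0.06 FPKM without and at 0.02 with SP. Of the interferon-γ response genes 9 were compared, of which 3 (Gbp2, Irgm1 and Psmb10) were lower and 0 higher as listed, and Gbp2 alone was lower after that scaling. In the class I list 6 were compared, 1 (Tapbp) was lower and 0 higher, and H2-D1, a class I heavy chain, was listed at 499.1 and 498.3 FPKM.

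Of the costimulatory genes 3 were compared in the colonies, with 2 lower (Cd40 and Icam1) and 1 higher (Cd80). After scaling by the median ratio 1 was lower and 1 higher. Of all genes, 19.8% were lower and 11.7% higher as listed, and 14.8% each way after that scaling. Cd80 was under 1 FPKM without SP and Cd40 with SP, so the filter fixed their directions. Icam1, the most abundant, was listed at 64.0 FPKM without SP and 49.6 with SP. Cd80, a ligand of CD28 on T cells, was listed at 0.78 FPKM without SP and 1.98 with SP, a difference of 0.74. Cd40, which T cell help engages on antigen-presenting cells, was listed at 3.61 and 0.54 FPKM, a difference of -1.58, and Cd86 was at 0 in both. Among the 9 compared lysosomal genes Ifi30 and Cst3 were lower and 0 were higher, near the shares of all genes. Ctss was at 0.14 FPKM without and at 0 with SP.

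Most leukocyte markers were at or near 0 in the colonies, but Cd14, Lcp1, Cd68, Lck and, with SP, Cd79a were above 1 FPKM. Ptprc and Rac2 were at 0 in both, and Laptm5 in the control colonies. The 7 pan-leukocyte genes summed to 6.35 FPKM without and 7.19 with SP, of which Lcp1 made 5.45 and 6.43 FPKM. Of 12 macrophage genes, 7 were at 0 without and 6 with SP, among them Adgre1, C1qa, C1qb and C1qc in both, and the sums of 56.3 and 52.6 FPKM were mostly Cd14 at 53.1 and 49.0 FPKM, with Cd68 at 2.70 and 3.26 FPKM. Of the 9 dendritic cell genes 7 and 6 were at 0, Itgax in both, and the sums were 0.52 and 0.44 FPKM. Ms4a1 of the B cell list and Cd3e and Cd4 of the T cell list were at 0 in both, with sums of 0.60 FPKM without and 1.3 FPKM with SP over the B cell genes and 1.85 and 1.54 FPKM over the T cell genes, nearly all of it Lck. The part of these cells in the level of H2-Ab1 was not tested.

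Marker counts in the colonies stood beside 11.7% of all genes higher and 19.8% lower as listed, and 14.8% each way after scaling by the median ratio. Of the 8 basal genes, 6 were higher and 1 (Oxtr) lower as listed, and 7 higher and 0 lower after that scaling, with a median of 0.86 and sums of 6384 FPKM without and 14218 FPKM with SP. Krt5 was listed at 1888 and 4579 FPKM, 2.42 times higher with SP, and Krt14, the most abundant, at 3298 and 6920 FPKM. The 10 luminal genes summed to 1492 and 1471 FPKM, led by Krt8 at 698 and 683 FPKM, with 4 lower, or 3 after that scaling, and 1 (Csn3) higher. Fibroblast genes summed to 41.6 and 13.3 FPKM, with 5 of 6 compared genes lower. Among these, Pdgfrb and Col3a1 were under 1 FPKM with SP, so the filter fixed their direction. The endothelial genes summed to 12.3 and 3.48 FPKM, of which Erg made 10.27 FPKM in the control colonies. The part of these markers in the rise of H2-Ab1 was not tested.

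**Figure D2:**
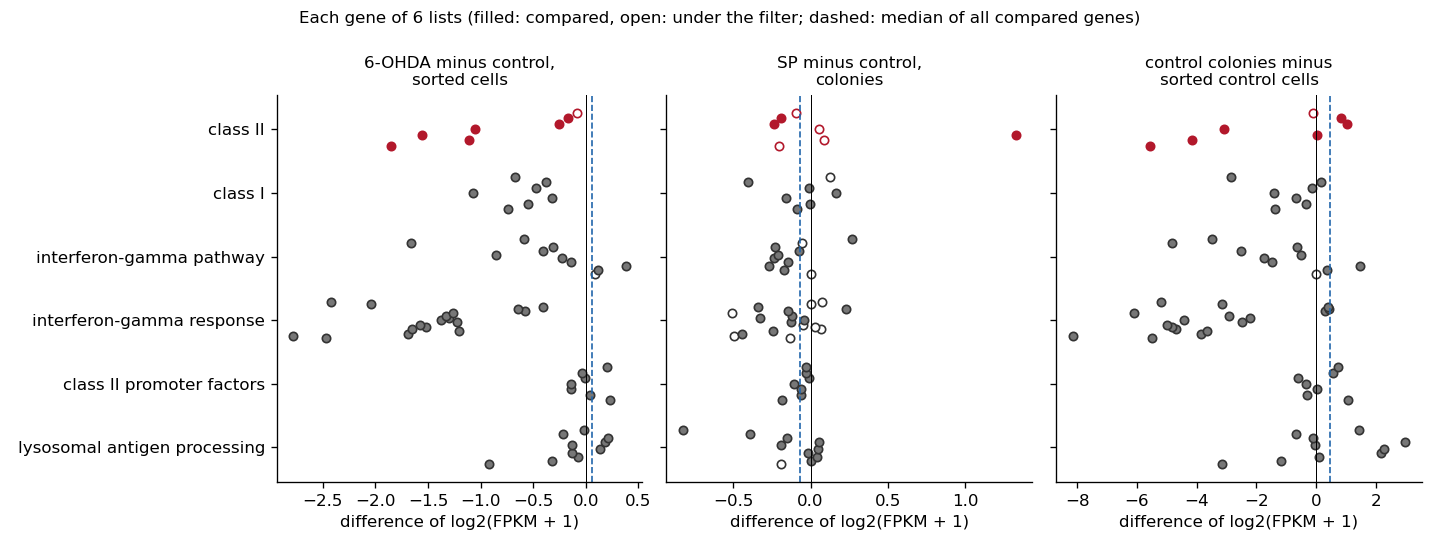
Difference of log2(FPKM + 1) on the horizontal axis, which has its own range in each panel, for every gene of 6 lists in the 3 comparisons, each of 1 library against another. Filled points passed the filter on low values, open points did not, and the dashed line is the median of all compared genes. H2-Aa, listed at 0 in the control colonies, is drawn there by its pseudocount. The class II genes are spread from -5.55 to 1.02 in the panel of control colonies against sorted control cells, and H2-Ab1 stands alone at 1.32 in the panel of SP against control colonies.

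The last comparison set the control colonies against the sorted control cells, to see how the genes stood after culture. It shares the sorted control library with the first comparison and the control colonies with the comparison of SP, so its values are independent of neither. Cd74, H2-Aa and H2-Eb1 were near 0 in the colonies. Cd74 was listed at 73.0 FPKM in the sorted control library and 0.58 in the control colonies, H2-Eb1 at 8.09 and 0.08, and H2-Aa at 16.65 and 0. H2-Ab1 was listed at 22.2 and 22.6 FPKM, a ratio of 1.02. H2-DMa was 2.71 times and H2-DMb1 1.99 times higher in the colonies.

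The median difference of all 12244 compared genes was 0.45, so the values below are also given relative to it. Of the 7 genes, 6 were compared, and Ciita lay under the filter. H2-Aa, Cd74 and H2-Eb1 passed it only through the sorted library. For these, as for every gene under 1 FPKM in the colonies, the filter left no direction but lower. Past 0.3, 3 were lower and 2 higher, where 26.6% of all genes were lower and 55.7% higher. Past 1, the same 3 were lower and 1 was higher, where 13.2% of all genes were lower and 30.7% higher. After scaling by the median ratio 39.6% of all genes were lower and 40% higher, and of the class II genes 4 were lower, with H2-Ab1 now among them, and 2 higher.

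Cd74 differed by -5.55, or -6.00 relative to the median of all genes, and 25 of the 12244 genes had a lower value. H2-Eb1 differed by -3.07, or -3.53 relative to the median. The DM genes went the other way, H2-DMa by 1.02 (0.57 relative to the median) and H2-DMb1 by 0.84 (0.39 relative to it), and both stayed above 0.3 under every alternative pseudocount and scaling, at 0.49 or more and 0.30 or more. H2-Ab1 differed by 0.02, or -0.43 relative to the median, and turned negative in every scaling, down to -0.46. The median of the 6 genes, -1.53, fell in the gap between H2-Eb1 and H2-Ab1 and stood for neither set.

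Genes of the interferon-γ pathway and response lists were mostly lower in the colonies, whereas the class II promoter factors went both ways. Of all genes, 26.6% were lower and 55.7% higher as listed, and 39.6% lower and 40% higher after scaling by the median ratio. Of the interferon-γ pathway list 9 were compared, with 7 lower and 2 (Ifngr1 and Ifngr2) higher as listed. After that scaling 7 were lower and 1 higher. Of the interferon-γ response genes 17 were compared, with 14 lower by more than 1, a median of -3.87 (-4.32 relative to all genes), and 3 (Psmb8, Psmb9 and Psmb10) higher as listed but 0 after scaling by the median ratio. Of the 14, 7 were under 1 FPKM in the colonies, as were Irf8 and Socs1 of the pathway list, so the filter fixed their direction. Irf8 went from 29.0 FPKM in the sorted control library to 0.06 in the control colonies and Irf1 from 135.9 to 22.8 FPKM. The receptor chain Ifngr1 was listed at 32.3 and 41.8 FPKM, a difference of 0.36 that turned to -0.13 after scaling by the median ratio. Of the 7 promoter factors, 3 were lower and 3 higher as listed, near the shares of all genes, and 4 lower and 1 higher after scaling. The highest was Rfx5, at 4.43 FPKM in the sorted control library and 10.5 in the control colonies, a difference of 1.08, or 0.63 relative to all genes.

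Class I genes stayed well above 0 in the colonies except Nlrc5. Of 7, 5 were lower past 0.3 as listed, 7 after scaling by the median ratio and 0 higher, and the median was -0.69, or -1.14 relative to all genes. The shares of all genes were 26.6% lower and 55.7% higher as listed, and 39.6% and 40% after scaling. H2-D1 was listed at 636.7 FPKM in the sorted control library and 499.1 in the control colonies, and the transactivator Nlrc5 at 12.5 and 0.86 FPKM. In the lysosomal list Ctss went from 9.16 to 0.14 FPKM, whereas Ctsd, a general lysosomal protease, went from 302 to 1366 FPKM and Ctsc from 13.7 to 115.9 FPKM. Of the list 3 were lower and 4 higher as listed, near the shares of all genes, and 6 lower and 4 higher after that scaling. Of the costimulatory genes 3 were compared, with Icosl and Icam1 lower and Cd40 higher. Nlrc5, Ctss and Icosl were under 1 FPKM in the colonies, so the filter fixed their direction.

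Markers of other cell types were mostly lower in the colonies. The endothelial genes summed to 346 FPKM in the sorted control library and 12.3 in the control colonies, with 7 of 7 lower, and Cdh5, the endothelial cadherin, was listed at 77.9 and 0.12 FPKM. Pan-leukocyte genes summed to 13.8 and 6.35 FPKM, with 1 of 2 compared genes lower, and fibroblast genes to 190 and 41.6 FPKM, with 6 of 8 lower. The dendritic cell, B cell and T cell lists had 1 compared gene each, Zbtb46 at 5.55 and 0.49 FPKM, Cd79a at 2.79 and 0.60 FPKM and Lck at 5.88 and 1.85 FPKM. Macrophage genes summed to 46.6 and 56.3 FPKM, with 3 of 4 compared genes lower and Cd14 higher. Zbtb46, Cd79a, Cd52, Mrc1 and Lyz2, 5 of the 7 endothelial genes and 2 of the 6 lower fibroblast genes were under 1 FPKM in the colonies, so the filter fixed their direction. Among the luminal genes 7 of 10 were higher, and of the basal genes 5 of 8 were lower. Of all genes, 55.7% were higher and 26.6% lower as listed. The higher luminal genes included Elf5, at 0.63 FPKM in the sorted control library and 22.5 in the control colonies. Elf5 passed the filter only through the colonies, which left no direction but higher. After scaling by the median ratio, 5 luminal genes were higher and 2 lower, and 7 basal genes were lower and 1 higher. The part of these cell types in the low values of Cd74, H2-Aa and H2-Eb1 was not tested.

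The class II genes of the mouse with an H2 name lie together in the MHC. In GRCm38.p6 the stretch from H2-Oa to H2-Eb2 spans chr17:34092379-34341410 and holds 15 annotated genes, of which 14 have values. H2-Ab1 lies at chr17:34263227-34269418, H2-Aa at chr17:34282744-34287823 and H2-Eb1 at chr17:34305867-34316674, and H2-DMb1 lies further off at chr17:34153191-34160229. In the colonies H2-Ab1 was thus expressed beside H2-Aa at or near 0. On its other side the next annotated gene, a long noncoding RNA, was not analysed here, and H2-Ob beyond it was at 0.33 and 0.22 FPKM in the sorted control and sorted 6-OHDA libraries and at 0 in both colony libraries. The 4 peptide transporter and proteasome genes between H2-DMb1 and H2-Ob, which serve class I, stayed above 10 FPKM in the colonies but did not move alike. From the sorted control library to the control colonies Tap1 went from 42.7 to 15.55 FPKM, Tap2 from 37.1 to 33.6, Psmb8 from 32.4 to 40.3 and Psmb9 from 10.4 to 14.4.

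The other class II genes were low throughout. H2-DMb2, the second β chain gene of DM, was listed at 0.79, 0.20, 1.14 and 1.04 FPKM in the order sorted control, sorted 6-OHDA, control colonies and SP colonies, and H2-Oa and H2-Eb2 were at or under 0.15 FPKM in every library. A further gene of the list, H2-Ea, was not analysed here. None of these passed the filter in the sorted cells or in the comparison of controls, and H2-DMb2 alone did in the colonies, at -0.07.

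**Figure D3:**
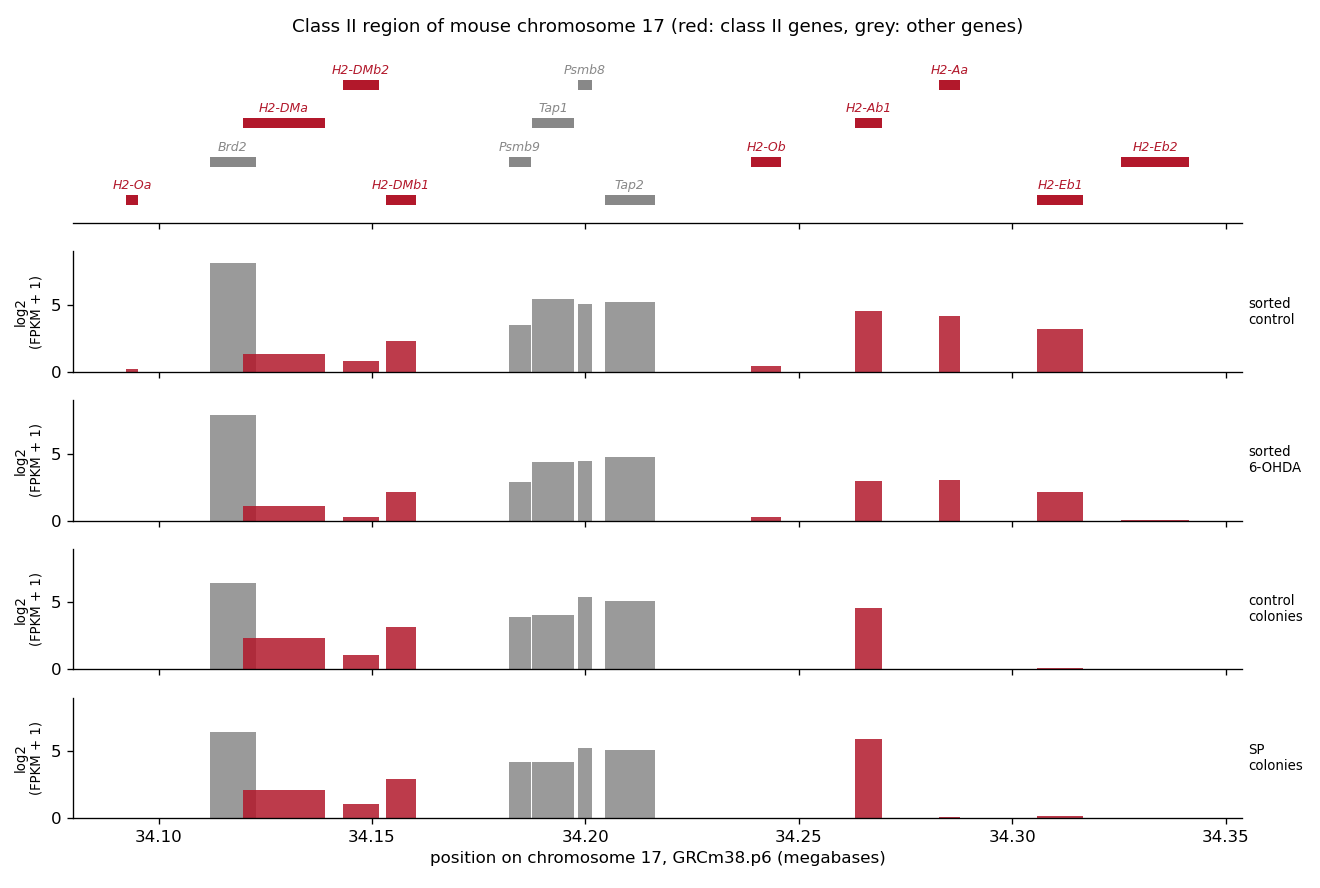
Map of the class II region on chromosome 17 (GRCm38.p6, position in megabases), with class II genes in red and other genes in grey, above 4 panels that give log2(FPKM + 1) of each gene over its annotated span, 1 panel for each library. The bars of H2-Aa and H2-Eb1 vanish in the colony panels and that of H2-Ab1, at 22.6 and 58.0 FPKM, stays.

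Some values could be shared between genes. In the GENCODE vM21 transcripts, 27.2% of the stretches of 50 bases in H2-DMb1 also occur in H2-DMb2, so the split of reads between these is uncertain. The annotation of H2-DMa (chr17:34119693-34139101) overlaps that of Brd2 (chr17:34112019-34122814), which was listed at 277, 232, 84.5 and 85.7 FPKM in the order sorted control, sorted 6-OHDA, control colonies and SP colonies, and whether the authors' counting used strand is not given in the sources. In Cd74, H2-Aa, H2-Ab1, H2-DMa and H2-Eb1, 0 stretches of that length occur in the transcripts of another gene, and in Ciita 16 of 5958 do.

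The profiles over the 4 libraries were compared by the Euclidean distance between log2(FPKM + 1) values centred on each gene's mean, among the 12282 genes whose mean over the libraries reached 1 FPKM. The nearest to Cd74 was Tgtp2, an interferon-inducible GTPase, at a distance of 0.26 and with 46.4, 12.7, 0.14 and 0.11 FPKM in the order sorted control, sorted 6-OHDA, control colonies and SP colonies. It was followed by Slfn5, Gbp6, Ch25h, Marco, Cxcl9, H2-Q7, Ifit3, Ubd and Ccl11, at distances up to 0.70. Gbp6 and Cxcl9 are on the interferon-γ response list. Among the members, Cd74 was 1.31 from H2-Aa and 2.28 from H2-Eb1, but 6.28 from H2-Ab1. H2-DMa and H2-DMb1 were 0.21 from each other.

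The mean profile of the 7 genes was nearest to those of Mxd1, Lcat, H2-K1, Hspa1b, H2-T22, Usp43, Krt4, Znfx1, Daxx and Rnf31, at 0.16 to 0.29. As the members lie far apart, with Cd74 6.28 from H2-Ab1, this mean need not resemble any of them. H2-K1 is on the class I list. The genes nearest to H2-Ab1 were looked up after its values were seen. They began with Mill1, a relative of class I, at a distance of 0.50 and with 9.16, 3.99, 14.4 and 27.0 FPKM in the order above, and went on with Kcnk7, Gm44504 and the chemokine Cxcl5, which was listed at 23.9, 14.2, 46.2 and 71.8 FPKM. None of these was as near to H2-Ab1 as Tgtp2 was to Cd74.

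Promoter sequences from RefSeq (GRCm38.p6) matched 4 of the 7 genes, H2-Aa, H2-Eb1, H2-DMa and H2-DMb1, and 4 of 5 other class II genes. The 250 bases before the annotated start are shown for H2-Aa and H2-Eb1, which fell together in the 6-OHDA library and were near 0 in culture, and for H2-DMb1, which did neither. Capitals mark the letters CCAAT, the core of the Y box that NF-Y binds, and ACNGATG, a part of the X box that RFX and CREB bind, on either strand, where they read ATTGG and CATCNGT. H2-Aa is on the minus strand at chr17:34287824-34288073, H2-Eb1 on the plus strand at chr17:34305617-34305866 and H2-DMb1 on the plus strand at chr17:34152941-34153190.
H2-Aa: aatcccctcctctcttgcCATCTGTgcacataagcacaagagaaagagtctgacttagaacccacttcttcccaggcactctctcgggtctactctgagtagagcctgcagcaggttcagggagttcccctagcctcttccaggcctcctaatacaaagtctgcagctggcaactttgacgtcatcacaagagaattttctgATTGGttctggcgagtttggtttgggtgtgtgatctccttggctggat
H2-Eb1: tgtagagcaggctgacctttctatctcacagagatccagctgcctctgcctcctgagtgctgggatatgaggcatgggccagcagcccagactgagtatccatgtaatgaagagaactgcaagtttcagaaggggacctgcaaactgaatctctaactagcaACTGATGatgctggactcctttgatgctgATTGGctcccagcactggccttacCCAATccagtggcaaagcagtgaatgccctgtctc
H2-DMb1: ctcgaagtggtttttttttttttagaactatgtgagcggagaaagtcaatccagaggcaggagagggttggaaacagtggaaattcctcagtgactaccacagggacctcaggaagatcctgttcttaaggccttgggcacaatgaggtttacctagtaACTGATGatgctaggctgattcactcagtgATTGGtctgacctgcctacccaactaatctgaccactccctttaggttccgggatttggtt

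Both sets of letters occur in all 3 windows. CCAAT on the reverse strand begins 48 bases before the start in H2-Aa, 59 in H2-Eb1 and 61 in H2-DMb1, and H2-Eb1 has another on the forward strand. ACNGATG begins 88 bases before the start in H2-Eb1 and 91 in H2-DMb1 on the forward strand, and 232 bases before it on the reverse strand in H2-Aa. That match in H2-Aa lies far from its CCAAT, and whether it is part of an X box was not tested. Of the 32851 windows of this length before annotated starts, 33.8% hold CCAAT, 8.31% hold ACNGATG and 2.77% hold both. H2-DMa has 2 windows, of which 1 holds CCAAT and 0 hold ACNGATG. The motifs do not overlap each other in these windows.

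The distance between both motifs was looked at after the windows had been read. In H2-Eb1 ACNGATG on the forward strand is followed by ATTGG with 29 bases from start to start, and in H2-DMb1 with 30. H2-DMb2 and H2-Eb2 have the same order with 30 and 29 bases. H2-Aa does not have it in these exact letters, as its only ACNGATG match lies on the reverse strand. An X box spelled with other letters would be missed, so H2-Aa is not shown to lack one. Among all 32851 windows, 14 have ACNGATG and then ATTGG with 28 to 32 bases. This range was chosen after the distances above were seen, and the 14 include the class II windows that have the order. H2-Eb1 and H2-DMb1 thus share this arrangement, although H2-Eb1 was listed at 0.08 FPKM and H2-DMb1 at 7.76 FPKM in the control colonies. A match of letters does not show that a factor was bound.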

How the data were processed

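RNA-seq of 4 libraries was used, 1 per condition. The authors deposited FPKM values with 2 decimals for 17630 genes listed by NCBI Gene number, of which 17512 matched RefSeq genes of GRCm38.p6. The submitters' processing notes name the build mm10, Bowtie2, RSEM 1.3.1 and DESeq2 1.4.5, with no role or order. FPKM values are relative to all fragments of a library, so abundant transcripts in 1 library lower all its other values. No condition has a replicate, so nothing was tested and p-values are not given. Differences of log2(FPKM + 1) were counted past 0.3 where the mean of both libraries reached 1 FPKM. The counting was tested on simulated data with large changes planted in well expressed genes and no spread between libraries. That does not show how reliable the counts are near 0.3 or near 1 FPKM. The members and gene lists were chosen with earlier results of these data known. Genes named are the members, every gene most like Cd74 and, of the lists, the most abundant gene and genes at 0; others were chosen after their values were seen. Some genes of the lists are counted but not reported here by name. Marker lists are general knowledge. Alternatives were other pseudocounts, filters, scalings and a threshold of 1. Python 3.11.15, numpy 2.4.6, pandas 2.3.3 and matplotlib 3.10.9 were used.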

Additional observations from a re-analysis of the deposited data

How the results depend on the processing

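No condition had a replicate, so a value was taken as kept when it moved by less than 0.3 on the log2 scale and a count when it stayed within 1.5 times. In the sorted cells, between 4 and 5 class II genes were past the threshold under the 8 alternative settings and at a threshold of 1, and the median moved to -0.74 with a pseudocount of 5 FPKM. In the colonies the count stayed at 1, and the median became 0.57 with a mean FPKM of at least 5, which left 2 genes. For the control colonies against the sorted control cells, a mean FPKM of at least 5 left 4 genes with 3 past the threshold and a median of -2.06. There the median was -2.74 with a pseudocount of 0.1 FPKM, -0.67 with a pseudocount of 5 FPKM, -0.10 with no filter on low values and -1.89 after scaling by the median ratio. The pseudocount sets such values for genes near 0. Of 126 values of single genes under the alternatives, 104 were kept, 22 moved, and 0 of those past the threshold in the main setting changed sign. H2-Ab1 in the control colonies against the sorted control cells went from 0.02 to -0.46 after scaling by the median ratio. Roughly 17 fragments or fewer stood behind Ciita in every library and behind Cd74, H2-Aa and H2-Eb1 in the colonies, which limits these values.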

Other observations

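Relatives of the class II genes in the nearest-profile search, named here after their values were seen, included further class I genes. H2-Q7 was listed at 38.1 FPKM in the sorted control library, 18.6 in the sorted 6-OHDA library and 0 in both colony libraries. H2-Q6 was listed at 67.9, 35.9, 2.72 and 2.99 FPKM in the order sorted control, sorted 6-OHDA, control colonies and SP colonies, at a distance of 0.23 from H2-Aa. The gene nearest to H2-Aa was Stab2, a scavenger receptor of sinusoidal endothelium, at 18.2, 8.31, 0.02 and 0.02 FPKM. Marco, a scavenger receptor best known from macrophages, was listed at 31.6 and 13.2 FPKM in the sorted libraries and at 0 in both colony libraries. Cd274, the gene of the checkpoint ligand PD-L1 and a member of the interferon-γ response list, was listed at 41.8, 6.97, 0.17 and 0.23 FPKM in the same order.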
